A study of Mus musculus with 11 samples.

Results

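The 10 genes described here encode immediate early transcription factors of the EGR, FOS and JUN families together with ATF3 and the IER2 nuclear protein. They are Egr1, Egr2, Egr3, Fos, Fosb, Fosl2, Jun, Junb, Ier2 and Atf3, taken by name from the 42375 named genes of the deposited count table. All 10 members passed the filter on low counts that left 15024 genes for testing, and none was dropped. The set was selected on measured values among others, since the log2 fold change of Egr1 between M1 KD and M1 NS was known when the members were chosen. Every change between M1 KD and M1 NS is thus given as a description without a p-value. Where a member is said to be called or not called in that comparison, this too only describes the fit and is not evidence of a change.

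RNA was sequenced from bone marrow derived macrophages of C57BL/6 mice. The 4 groups were M1 KD (2 libraries, replicates 5 and 6), M1 NS (3 libraries, replicates 1, 2 and 4), M0 KD (replicates 1, 2 and 4) and M0 NS (replicates 1, 2 and 4). KD libraries came from cells given a gapmer, an antisense oligonucleotide that directs cleavage of a matching RNA, against the long noncoding RNA MERRICAL for 16 hours, and NS libraries from cells given the gapmer labelled NS for the same time. All 11 libraries thus carried a gapmer, and no cells without one were compared. The labels name neither the M1 stimulus and its timing nor the meaning of the replicate numbers. They do not call replicates separate cultures either, so a p-value reflects the spread of libraries that may differ in technique alone.

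Immediate early genes are transcribed within minutes of a stimulus, without new protein synthesis, and their messengers are usually short-lived. Signals through MAP kinases act on serum response factor (SRF) and its ternary complex partners at CArG boxes, and on CREB and ATF factors at cyclic AMP response elements, to switch them on. The EGR proteins are zinc finger factors that bind GC-rich sites. FOS and JUN proteins pair through leucine zippers to form the AP-1 factor, and ATF3 is a leucine zipper protein of the same superfamily that dampens Toll-like receptor responses in mouse macrophages.

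The sequence in front of the transcription start is where many of the inputs to these genes converge, so it is shown for a member that was low in M1 KD (Egr2) and for 4 that were high there (Fos, Fosb, Jun and Junb). Each line holds the 150 bases before the start that RefSeq lists on GRCm38.p6, 5′ to 3′ on the gene's own strand. Capitals mark matches to the motifs searched.
Egr2: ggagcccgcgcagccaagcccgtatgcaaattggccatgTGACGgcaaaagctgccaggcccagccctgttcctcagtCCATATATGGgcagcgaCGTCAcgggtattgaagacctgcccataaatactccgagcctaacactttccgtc
Fos: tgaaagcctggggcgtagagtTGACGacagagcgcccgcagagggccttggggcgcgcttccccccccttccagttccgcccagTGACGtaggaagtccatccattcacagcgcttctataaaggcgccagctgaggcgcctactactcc
Fosb: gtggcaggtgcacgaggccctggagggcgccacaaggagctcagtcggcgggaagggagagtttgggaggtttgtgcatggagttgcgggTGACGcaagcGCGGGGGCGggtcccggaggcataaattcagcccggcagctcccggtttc
Jun: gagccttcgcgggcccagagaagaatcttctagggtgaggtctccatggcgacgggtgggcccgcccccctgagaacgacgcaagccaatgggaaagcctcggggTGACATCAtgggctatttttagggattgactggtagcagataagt
Junb: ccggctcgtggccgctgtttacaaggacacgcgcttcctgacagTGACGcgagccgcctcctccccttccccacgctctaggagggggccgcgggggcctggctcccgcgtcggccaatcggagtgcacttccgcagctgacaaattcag
They lie at chr10:67537719-67537868 on the plus strand for Egr2, chr12:85473740-85473889 on the plus strand for Fos, chr7:19310046-19310195 on the minus strand for Fosb, chr4:95052223-95052372 on the minus strand for Jun and chr8:84978749-84978898 on the minus strand for Junb. RefSeq lists 5 starts for Egr2, of which 1 is shown.

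The motifs were searched on both strands in windows of 300 bases, 250 before and 50 after each start, for 7 members. No window was used for Egr1, Egr3 and Ier2, so Egr2 was the only member low in M1 KD that was searched. Of the 5 Egr2 windows, 4 held a CArG box and 3 the core TGACG. In the window shown the CArG box, which begins 72 bases before the start, is a motif found in 1.63% of the 32817 windows of all genes. The core TGACG, which lies inside the full cyclic AMP response element TGACGTCA, occurred at 129 and 66 bases before the Fos start, 60 before the Fosb start, 106 before the Junb start and 7 before the Atf3 start, and in both orientations in front of the Egr2 start shown, against 20.8% of all windows with at least 1. The full element TGACGTCA (1.79% of all windows) and the AP-1 site TGANTCA (7.81%) were found in none of the 7. The variant TGACATCA, present in 3.62% of windows, lay 45 bases before the Jun start, and the EGR motif GCGNGGGCG, present in 5.56%, lay in front of Fosb and of Fosl2. The core thus stood in front of members that were low (Egr2) and high (Fos, Fosb and Junb) in M1 KD. These matches are letters in a window and show neither binding nor use of a site.

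Total counts ran from 30040632 to 43250392 per library. Levels are given as CPM, each count divided by its library's total times the TMM factor, and levels of different genes are compared only as CPM per kilobase of exon. A gene is called where edgeR's quasi-likelihood test on all 11 libraries gave an adjusted p under 0.05 (Benjamini-Hochberg, 15024 genes). Replicate 4 stood apart from replicates 1 and 2 in M1 NS, M0 KD and M0 NS, with a mean chi-square per gene of 143 and 163 in M1 NS, where replicates 1 and 2 gave 57.2. The same values were 48.4 and 50.2 beside 17.6 in M0 KD, and 51.6 and 68.4 beside 14.3 in M0 NS. The 2 M1 KD libraries gave 126, so they too differed from each other more than replicates 1 and 2 did in the other groups. In these bulk samples, fewer cells of a type and less RNA per cell cannot be told apart. Of 10 macrophage markers, 9 were found in the table, and their summed level was 15022 to 18148 CPM in M1 KD, 13837 to 16019 in M1 NS, 19448 to 21265 in M0 KD and 25820 to 27183 in M0 NS, with none at 0. Lyz2 led, with means of 7253 CPM in M1 KD, 5637 in M1 NS, 13180 in M0 KD and 17452 in M0 NS. In M1 NS against M0 NS, 5 of the 9 were called higher and 3 lower, against 26.9% and 28.6% of all genes. The 13 neutrophil markers summed to 208 to 227 CPM in M1 KD, 242 to 315 in M1 NS, 733 to 757 in M0 KD and 1310 to 2297 in M0 NS. Lcn2 led in both M1 groups, with means of 151 CPM in M1 KD and 136 in M1 NS. Its means were 49.3 CPM in M0 KD and 119 in M0 NS. In M1 NS against M0 NS, 12 of the 13 were called lower and 0 higher, against 28.6% and 26.9% of all genes. The 6 dendritic cell markers summed to 130 to 609 CPM in M1 KD, 107 to 337 in M1 NS, 6.45 to 12.8 in M0 KD and 10.4 to 11 in M0 NS. Most of the sum in the M1 groups was Ccr7, with means of 346 CPM in M1 KD and 230 in M1 NS. Its means were 0.961 CPM in M0 KD and 1.196 in M0 NS. In M1 NS against M0 NS, 4 of the 6 were called higher and 2 lower (Flt3 and Siglech), against 26.9% and 28.6% of all genes. MERRICAL is not among the gene names used, so knockdown of the target itself was not analysed here.

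The members lay in both directions between M1 KD and M1 NS. M1 KD holds replicates 5 and 6 and M1 NS replicates 1, 2 and 4. Gapmer and replicate number thus cannot be told apart here, nor in the difference between the knockdown effects. State and replicate number likewise cannot be told apart in M1 KD against M0 KD. All 3 EGR members and Ier2 were lower in M1 KD than in M1 NS, and all 3 FOS members, Jun, Junb and Atf3 were higher. The libraries did not overlap for any of the 10 members. Outside the set, the FOS gene Fosl1 was called lower (log2 fold change -4.98), and the JUN gene Jund was not called (0.20). Called were 5 members higher and 4 lower, against 17.6% and 19.2% of all genes (36.8% together), and 52.4% of all genes had ranges that did not overlap. Since this contrast entered the choice of the members, nothing is read from these counts. The median log2 fold change of the members was 0.56, beside 0.00 over all genes.

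Egr1, the best known of the zinc finger factors induced by growth factors, stood at 0.439 and 0.731 CPM in the M1 KD libraries, against 25.5, 20.9 and 14.2 CPM in M1 NS. Both M1 KD libraries were low, on 16 and 20 counts. The fitted level was 35.1-fold lower (log2 fold change -5.14, SE 0.31). Egr2, a factor of myeloid development and of alternative activation in mouse macrophages, had 0.494 and 0.402 CPM in M1 KD, against 1.09, 1.504 and 1.63 CPM in M1 NS. It was already low in M1 NS, and its log2 fold change was -1.63 (SE 0.40). It was no longer called without M1 KD replicate 6 (-1.51) or with limma-voom (-1.58).

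Egr3, the close relative of Egr2, was counted 2 times and 0 times in the M1 KD libraries (0.0549 and 0 CPM), against 0.504, 0.396 and 0.258 CPM in M1 NS. The 2 counts in M1 KD stood against 37 in M1 NS, a ratio of scaled counts of 0.0812 with a 95% interval of 0.00948 to 0.315 that covers counting error only. Ier2, an immediate early nuclear protein without an AP-1 leucine zipper, had 6.88 and 20.2 CPM in M1 KD, against 60.4, 71.9 and 27.0 CPM in M1 NS. Its spread was wide in both groups, with replicate 6 of M1 KD and replicate 4 of M1 NS nearest to each other. The log2 fold change was -1.98 (SE 0.43), -1.40 without M1 KD replicate 5 and -2.95 without replicate 6.

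Fosb moved furthest in the other direction. It encodes an AP-1 partner of the JUN proteins, and stood at 23.3 and 21.1 CPM in M1 KD, against 0.392, 0.712 and 0.258 CPM in M1 NS. The M1 KD libraries held 851 and 577 counts and the M1 NS libraries 14, 18 and 9, so the fitted level was 50.3-fold higher (log2 fold change 5.65, SE 0.32). Fos, the founding member of the family, had 247 and 309 CPM in M1 KD, against 92.1, 78.0 and 86.9 CPM in M1 NS (log2 fold change 1.70, SE 0.15). Fosl2, which encodes the FOS relative FRA2, had 90.6 and 102 CPM in M1 KD, against 52.3, 53.6 and 82.2 CPM in M1 NS. M1 NS replicate 4 lay close to the M1 KD libraries, and the log2 fold change of Fosl2 was 0.62 (SE 0.18). It was 0.91 without that library, and was no longer called when replicate 6 of M1 KD (0.53) or replicate 1 (0.50) or 2 (0.52) of M1 NS was left out, or with the M1 groups fitted alone (0.66).

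Jun, the central AP-1 partner, had 183 and 187 CPM in M1 KD, against 70.5, 80.8 and 85.4 CPM in M1 NS (log2 fold change 1.23, SE 0.14). Junb, a JUN protein that pairs with the same FOS partners, had 1681 and 1712 CPM in M1 KD, against 638, 780 and 468 CPM in M1 NS (log2 fold change 1.43, SE 0.20). For both genes the M1 KD libraries were close to each other and above every M1 NS library. Atf3 had 874 and 1271 CPM in M1 KD, against 826, 782 and 664 CPM in M1 NS. Replicate 5 of M1 KD was barely above the highest M1 NS library, and the change was not called (log2 fold change 0.50, SE 0.19), although it was called without that replicate (0.74), with DESeq2 (0.53) and with no filter on low counts (0.51).

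Junb and Jun each overlap another gene on the opposite strand, and no label states the strand setting of the counting. The antioxidant gene Prdx2 shares 173 bases of exon with Junb, and stood at 252 to 261 CPM in M1 KD, 204 to 238 in M1 NS, 124 to 135 in M0 KD and 136 to 165 in M0 NS. The antisense gene Junos shares 232 bases of exon with Jun, and stood at 0.329 to 0.512 CPM in M1 KD, 0.560 to 1.03 in M1 NS, 1.25 to 2.22 in M0 KD and 0.881 to 1.52 in M0 NS. Their part in the values of Junb and Jun was not tested. In GENCODE M21 Jun, Junb and Ier2 have 1 exon, the EGR genes 2, and Fos, Fosb, Fosl2 and Atf3 have 4. Of the 569 tested genes with 1 exon and a mean log2 CPM of at least 1, 16.9% were called higher and 29.9% lower in M1 KD than in M1 NS. Among the 7200 genes at that level with 5 or more exons, the shares were 19.5% and 23.8%.

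**Figure D1:**
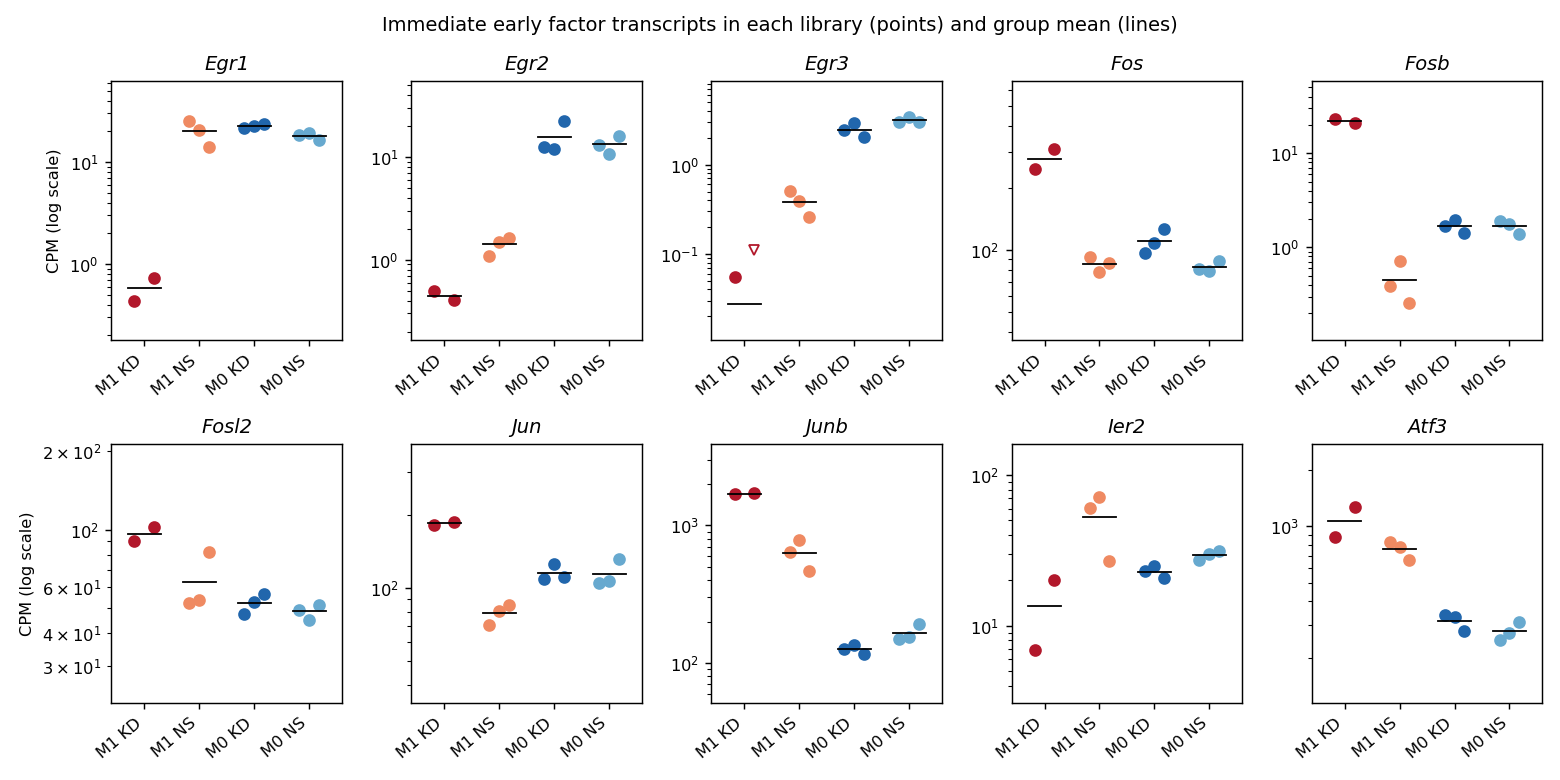
Level of each of the 10 genes in CPM (log axis, own scale per gene) in every library, with groups from left to right M1 KD, M1 NS, M0 KD and M0 NS. Points are libraries, lines are group means, and the open triangle for Egr3 stands at the level of 3 counts in M1 KD replicate 6, where the count was 0. Egr1 lies under 1 CPM in both M1 KD libraries and above 14 in all others, and Fosb lies above 21 CPM in both M1 KD libraries and under 2 in all others.

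In M0 cells the fitted log2 fold changes of the 10 genes were small, the largest being 0.42 for Fos. No member was called between M0 KD and M0 NS, and 0% of all 15024 genes were called, higher (0%) or lower (0%), although 1947 genes had an unadjusted p under 0.05. DESeq2 called 221 genes and limma-voom 0, and no member was among the genes called by either tool. The ranges did not overlap for 5 members, Egr1 and Fos above and Egr3, Junb and Ier2 below, against 35.1% of all genes. The median log2 fold change of the members was 0.06, beside 0.00 over all genes.

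Fos had 97.0, 108 and 127 CPM in M0 KD, against 81.0, 79.0 and 88.8 CPM in M0 NS (log2 fold change 0.42, SE 0.14, edgeR adjusted p = 0.291). Egr1 had 21.7, 22.8 and 23.8 CPM in M0 KD, against 18.3, 19.2 and 16.6 CPM in M0 NS (0.34, SE 0.19, edgeR adjusted p = 0.451). Each was a little higher in all 3 M0 KD libraries. With the 6 M0 libraries fitted alone, these were the members called, Egr1 at 0.35 (edgeR adjusted p = 0.0463) and Fos at 0.43 (edgeR adjusted p = 0.0477), and 8.06% of 13683 genes were called, 3.98% higher and 4.08% lower.

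Junb ran the other way, with 127, 136 and 117 CPM in M0 KD, against 151, 154 and 193 CPM in M0 NS (log2 fold change -0.39, SE 0.18, edgeR adjusted p = 0.390). Ier2 had 23.0, 24.8 and 20.7 CPM in M0 KD, against 27.4, 30.0 and 31.4 CPM in M0 NS (-0.37, SE 0.36, edgeR adjusted p = 0.646). Egr3 had 2.44, 2.89 and 2.03 CPM in M0 KD, against 3.002, 3.39 and 3.02 CPM in M0 NS (-0.35, SE 0.30, edgeR adjusted p = 0.596). In the fit of the 6 M0 libraries alone, Junb had -0.38 (SE 0.12, edgeR adjusted p = 0.0726). Ier2 had -0.37 there (SE 0.097, edgeR adjusted p = 0.0531) and Egr3 -0.35 (SE 0.19, edgeR adjusted p = 0.259). None of them was called in that fit. A correction for gene length, GC content and exon number turned the direction of Junb (0.036) and of Ier2 (0.028). Fosb, at 1.67, 1.95 and 1.43 CPM in M0 KD, against 1.91, 1.79 and 1.40 CPM in M0 NS, had a log2 fold change of -0.02. Egr2 was high in 1 M0 KD library, with 12.4, 12.1 and 22.4 CPM in M0 KD, against 13.1, 10.7 and 16.2 CPM in M0 NS. Its log2 fold change was 0.23 with all libraries and -0.12 without M0 KD replicate 4.

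Fosl2, Jun and Atf3 overlapped between the M0 groups. Fosl2 had 47.3, 52.9 and 56.8 CPM in M0 KD, against 49.3, 45.0 and 51.5 CPM in M0 NS. Jun had 109, 126 and 111 CPM in M0 KD, against 105, 107 and 132 CPM in M0 NS. Atf3, with 337, 331 and 276 CPM in M0 KD, against 249, 272 and 309 CPM in M0 NS, had the largest log2 fold change of these 3, at 0.19 (SE 0.17).

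The difference between the knockdown effects in M1 and M0 was called for 8 members, 4 higher and 4 lower, against 27.3% of all genes (13.1% higher and 14.2% lower). It contains the contrast that entered the choice, so it too is a description. The log2 difference was 5.67 for Fosb (SE 0.41), 1.82 for Junb (SE 0.27), 1.28 for Fos (SE 0.21) and 1.22 for Jun (SE 0.19). It was -5.47 for Egr1 (SE 0.36), -3.15 for Egr3 (SE 0.76), -1.86 for Egr2 (SE 0.47) and -1.60 for Ier2 (SE 0.55). The Egr3 value rests on 2 counts in M1 KD, and was -6.51 without M1 KD replicate 5 and -2.39 without replicate 6. Fosl2 at 0.51 (SE 0.25) and Atf3 at 0.31 (SE 0.26) were not called. Fosl2 was called without M1 NS replicate 4 (0.80). Egr2 was not called without M1 KD replicate 6 (-1.73) or with limma-voom (-1.78). Ier2 sat near the threshold and was not called with median-of-ratios scaling (-1.57) or when any library other than M1 KD replicate 6 or M1 NS replicate 4 was left out, with log2 differences of -1.67 to -1.02.

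**Figure D2:**
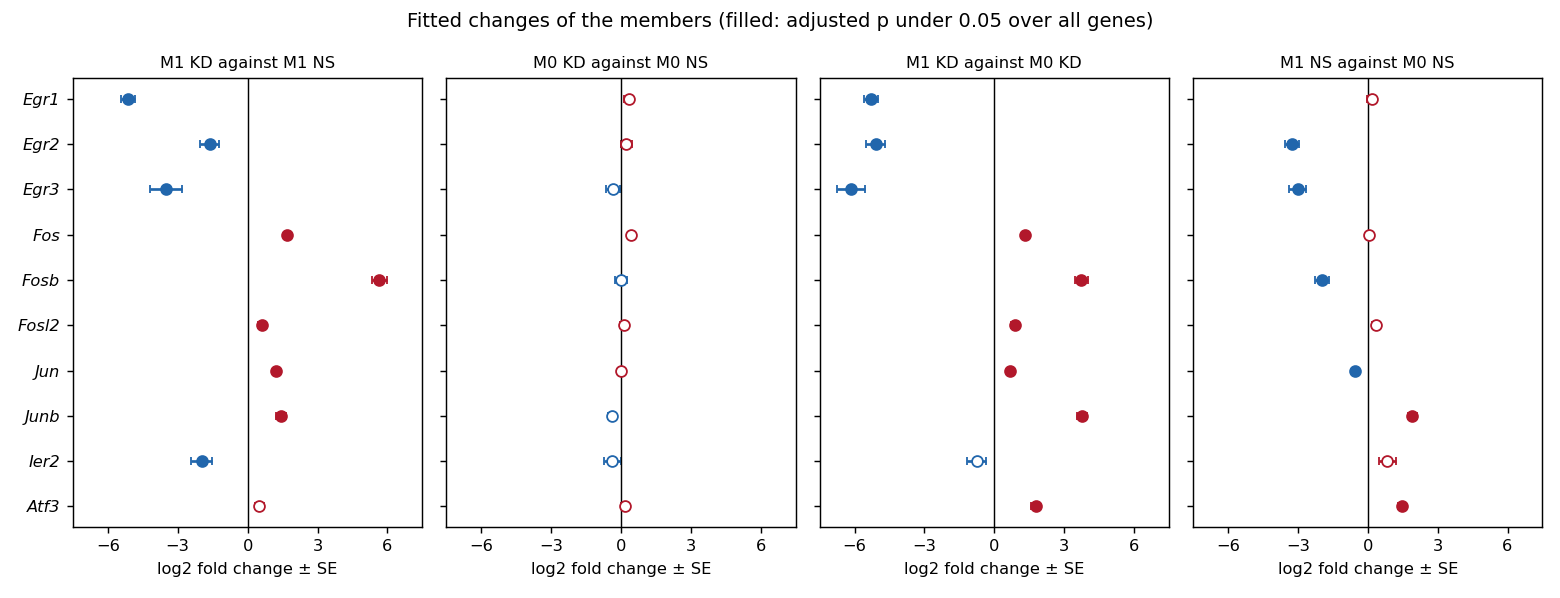
Log2 fold change of each gene with its standard error from the edgeR fit of all 11 libraries, in 4 panels. From the left these are knockdown in M1 (M1 KD against M1 NS), knockdown in M0 (M0 KD against M0 NS), the states after knockdown (M1 KD against M0 KD) and the states with NS (M1 NS against M0 NS). Filled points are called at an adjusted p under 0.05. All points in the M0 panel are open and lie within 0.42 of 0, whereas in M1 cells they run from -5.14 for Egr1 to 5.65 for Fosb.

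With the NS gapmer, Junb and Atf3 were higher in M1 than in M0 cells, and Egr2, Egr3, Fosb and Jun were lower. This comparison shares the M1 NS libraries with the knockdown comparison in M1. Called were thus 2 members higher and 4 lower, against 26.9% and 28.6% of all genes (55.5% together). The ranges did not overlap for 7 members, against 61.4% of all genes, and the share of members called, 6 of 10, is near the background. The median log2 fold change was 0.11, beside -0.04 over all genes.

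Among the EGR genes, Egr1 stood apart from its relatives. Its levels of 25.5, 20.9 and 14.2 CPM in M1 NS straddled the 18.3, 19.2 and 16.6 CPM of M0 NS (log2 fold change 0.16, SE 0.19, edgeR adjusted p = 0.495), and it was called higher without M1 NS replicate 4 (0.37, edgeR adjusted p = 0.0410). Egr2 fell to 1.09, 1.504 and 1.63 CPM in M1 NS, against 13.1, 10.7 and 16.2 CPM in M0 NS (-3.24, SE 0.29, edgeR adjusted p = 1.64e-06). Egr3 fell to 0.504, 0.396 and 0.258 CPM in M1 NS, against 3.002, 3.39 and 3.02 CPM in M0 NS (-3.01, SE 0.35, edgeR adjusted p = 1.53e-05). Per kilobase of exon, the level of Egr1 was 6.59 to 17.7 times that of Egr2 in M1 NS, and 0.780 to 1.36 times that of Egr2 in M0 NS.

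The FOS and JUN genes also parted from each other. Fosb fell to 0.392, 0.712 and 0.258 CPM in M1 NS, against 1.91, 1.79 and 1.40 CPM in M0 NS (log2 fold change -1.95, SE 0.31, edgeR adjusted p = 1.76e-04). Fos, at 92.1, 78.0 and 86.9 CPM in M1 NS, against 81.0, 79.0 and 88.8 CPM in M0 NS, had a log2 fold change of 0.05 (SE 0.14). Jun fell to 70.5, 80.8 and 85.4 CPM in M1 NS, against 105, 107 and 132 CPM in M0 NS (-0.54, SE 0.13, edgeR adjusted p = 0.00376). Junb, by contrast, rose to 638, 780 and 468 CPM in M1 NS, against 151, 154 and 193 CPM in M0 NS (1.92, SE 0.19, edgeR adjusted p = 3.88e-06). Junb per kilobase was thus 7.59 to 13.4 times the level of Jun in M1 NS, and 1.999 to 2.02 times in M0 NS.

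Atf3 rose to 826, 782 and 664 CPM in M1 NS, against 249, 272 and 309 CPM in M0 NS (log2 fold change 1.45, SE 0.18, edgeR adjusted p = 2.02e-05). Fosl2 had 52.3, 53.6 and 82.2 CPM in M1 NS, against 49.3, 45.0 and 51.5 CPM in M0 NS (0.37, SE 0.17, edgeR adjusted p = 0.0777). The highest value was that of M1 NS replicate 4, and the gene was called without replicate 1 (0.49) or replicate 2 (0.47), with DESeq2 (0.40) and with the correction for length, GC content and exon number (0.49). Ier2 had 60.4, 71.9 and 27.0 CPM in M1 NS, against 27.4, 30.0 and 31.4 CPM in M0 NS. Replicate 4 of M1 NS was below all M0 NS libraries, and the log2 fold change of 0.84 (SE 0.36, edgeR adjusted p = 0.0644) became 1.17 without it (edgeR adjusted p = 0.00957). The gene was also called with DESeq2, with low counts unfiltered and in a fit of the M1 NS and M0 NS groups alone. With library size as the only scaling, the median of all genes moved to -0.42 in this comparison, and the values of Egr1, Fos and Fosl2 turned negative, at -0.23, -0.34 and -0.01.

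In the KD groups, the states differed by larger fitted changes than in the NS groups, except for Ier2 (-0.76, beside 0.84 with NS). Over all genes the median absolute log2 fold change between the states was also larger, at 0.85 with KD and 0.70 with NS. M1 KD against M0 KD shares the M1 KD libraries with the comparison that entered the choice, and its values are given as a description. Called were 6 members higher and 3 lower, against 26.9% and 31.4% of all genes (58.3% together). No member's ranges overlapped, against 74.9% of all genes whose ranges did not. The median log2 fold change was 0.78, beside -0.11 over all genes, a median that library size as the only scaling moved to -0.59.

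Egr1, with 0.439 and 0.731 CPM in M1 KD, against 21.7, 22.8 and 23.8 CPM in M0 KD, had a log2 fold change of -5.31 (SE 0.31), where the NS groups differed by 0.16. Egr2 had 0.494 and 0.402 CPM in M1 KD, against 12.4, 12.1 and 22.4 CPM in M0 KD (-5.10, SE 0.39). Egr3 had 2 counts in M1 KD and 313 in M0 KD, a ratio of scaled counts of 0.0129 with a 95% interval of 0.00155 to 0.0469. All EGR members were thus far lower in M1 KD than in M0 KD.

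Fosb and Jun differed in direction between the KD and the NS groups. Fosb had 23.3 and 21.1 CPM in M1 KD, against 1.67, 1.95 and 1.43 CPM in M0 KD (log2 fold change 3.72, SE 0.28), while with NS it was lower in M1. Jun had 183 and 187 CPM in M1 KD, against 109, 126 and 111 CPM in M0 KD (0.68, SE 0.14), while with NS it was lower in M1 as well. For both genes the ranges lay apart in opposite directions with each gapmer. Junb, at 1681 and 1712 CPM in M1 KD, against 127, 136 and 117 CPM in M0 KD, had a log2 fold change of 3.74 (SE 0.21).

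Fos had 247 and 309 CPM in M1 KD, against 97.0, 108 and 127 CPM in M0 KD (log2 fold change 1.33, SE 0.15). Fosl2 had 90.6 and 102 CPM in M1 KD, against 47.3, 52.9 and 56.8 CPM in M0 KD (0.88, SE 0.18). Atf3 had 874 and 1271 CPM in M1 KD, against 337, 331 and 276 CPM in M0 KD (1.77, SE 0.19). These 3 members all stood higher in M1 KD. Ier2, at 6.88 and 20.2 CPM in M1 KD, against 23.0, 24.8 and 20.7 CPM in M0 KD, was not called (-0.76, SE 0.42), although it was called without M1 KD replicate 6 (-1.73), with library size as the only scaling, with the correction for length, GC content and exon number, and with low counts unfiltered. The Fosl2 and Jun calls were lost with library size as the only scaling, at 0.39 and 0.20.

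Per kilobase of exon, the order of the members changed between groups. In M1 KD, Junb led with a mean of 737 CPM per kilobase, followed by Atf3 at 498, Fos at 118 and Jun at 58.0, with ranges that did not overlap between neighbours. Fosl2 at 9.96 and Ier2 at 8.90 overlapped, then came Fosb at 3.56, and the EGR genes closed the order, with Egr2 at 0.132 and Egr1 at 0.130 overlapping. In M1 NS, Atf3 at 352 and Junb at 273 overlapped, as did Fos at 36.4 and Ier2 at 34.9, and Ier2 with Jun at 24.7. Fosl2 at 6.48 overlapped Egr1 at 4.50. Egr2 at 0.415 was above Egr3 at 0.0876 and Fosb at 0.0727, which overlapped.

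In both M0 groups Atf3 led, at 146 CPM per kilobase in M0 KD and 128 in M0 NS. In M0 KD it was followed by Junb at 55.1, which overlapped Fos at 47.1, and then by Jun at 36.1 and Ier2 at 15.01. Fosl2 at 5.41, Egr1 at 5.08 and Egr2 at 4.59 overlapped from neighbour to neighbour there, and Egr3 at 0.557 and Fosb at 0.270 were last. In M0 NS, Junb at 72.1 came second, Jun at 35.9 and Fos at 35.3 overlapped, Ier2 was at 19.4, and Fosl2 at 5.02 stood just above Egr1 at 4.02 and Egr2 at 3.92, which overlapped. Egr3 at 0.712 and Fosb at 0.272 were again last.

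The summed level of the EGR genes was 0.256 to 0.281 CPM per kilobase in M1 KD, 3.71 to 6.12 in M1 NS, 9.03 to 12.4 in M0 KD and 8.21 to 9.15 in M0 NS. Jun and Junb together gave 788 to 803 in M1 KD, 230 to 365 in M1 NS, 85.8 to 98.6 in M0 KD and 98.3 to 125 in M0 NS. As a share of all 10 members, the EGR genes made up 0.0181% to 0.0194% in M1 KD, 0.613% to 0.791% in M1 NS, 2.82% to 4.12% in M0 KD and 2.68% to 3.07% in M0 NS. The shares of Jun and Junb were 51.7% to 59.8% in M1 KD, 38.0% to 44.5% in M1 NS, 28.2% to 29.9% in M0 KD and 34.3% to 36.6% in M0 NS. The ratio of Junb to Jun was 12.8 and 12.7 in M1 KD, against 12.5, 13.4 and 7.59 in M1 NS, where replicate 4 was lowest. The ratio of Fosb to Fos was 0.0257 to 0.0356 in M1 KD, 0.00112 to 0.00344 in M1 NS, 0.00424 to 0.00678 in M0 KD and 0.00595 to 0.00887 in M0 NS, so Fos remained the far more abundant of both in every library.

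**Figure D3:**
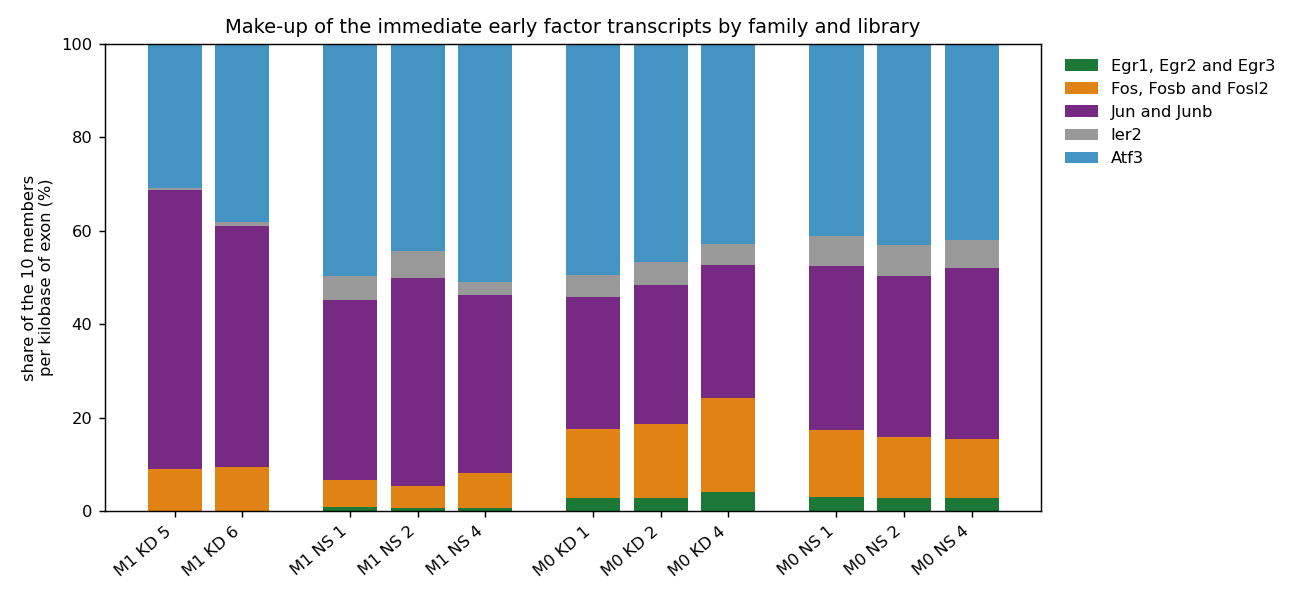
Share of each family in the summed level of the 10 genes per kilobase of exon, in percent, with 1 bar per library from M1 KD (left) over M1 NS and M0 KD to M0 NS (right). Jun and Junb take 51.7% to 59.8% in M1 KD and under 45% in the other libraries, and the EGR share at the foot of the bars is under 0.02% in M1 KD.

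The genes whose levels ran most like those of a member were found by Pearson correlation of log2 CPM over the 11 libraries among 8315 genes. The libraries fall into 4 groups that all these genes share, so the values only describe the pattern. For Egr1 they were Cstf2t (r = 0.991), Dgcr8 (0.991), Rraga (0.991), Tet3 (0.986) and Srsf6 (0.985). Cstf2t, an mRNA 3′ end processing factor, averaged 6.76 CPM in M1 KD, 46.8 in M1 NS, 47.1 in M0 KD and 44.3 in M0 NS. For Fos they were Lactb (0.962), Gkap1 (0.938), 2310001H17Rik (0.931), Btrc (0.927) and Hn1l (0.922), a looser likeness. For Atf3 they were Atf4 (0.992), Rbm47 (0.991), Dusp1 (0.988), Atp1b3 (0.986) and Pdzd11 (0.985). Atf4, a stress-induced factor of the same superfamily, averaged 440 CPM in M1 KD, 334 in M1 NS, 110 in M0 KD and 104 in M0 NS.

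None of the other AP-1 and EGR factors and EGR corepressors was called higher after knockdown in M1. This and the other gene lists were chosen with earlier results of these data known, so their counts are given as a description. Of 14 in the list 13 were tested, and 6 were called lower and 0 higher in M1 KD than in M1 NS, with a median log2 fold change of -0.59, against 19.2% of all genes lower and 17.6% higher and a median of 0.00. Fosl1, which encodes the FOS relative FRA1, averaged 0.201 ± 0.026 CPM in M1 KD (SD, n = 2), against 6.49 ± 0.87 CPM in M1 NS (SD, n = 3), and its log2 fold change was -4.98 (SE 0.33). Nab2, a corepressor that binds EGR proteins and is itself an EGR target, had -1.28, and Mafg, a small MAF protein, had -0.98. In M1 NS against M0 NS, 8 of the 13 rose and 0 fell, against 26.9% and 28.6% of all genes, led by Batf2 at 5.23 and Jdp2 at 4.55, with Fosl1 at 3.79. In M1 KD against M0 KD, 7 were called higher and 3 lower, against 26.9% and 31.4% of all genes, and between M0 KD and M0 NS 0 were called. Egr4 was at 0 counts in all M1 KD and M1 NS libraries, and had 2 counts in M0 KD and 3 in M0 NS.

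Of 35 other immediate early genes, 14 were called higher and 7 lower in M1 KD than in M1 NS, with a median log2 fold change of -0.12, against 17.6% and 19.2% of all genes and a median of 0.00. The higher ones included the factor genes Klf4 (1.59) and Nfil3 (1.64) and the stress phosphatase subunit gene Ppp1r15a (1.54). The lower ones included the pseudokinase gene Trib1 (-2.43), the kinase gene Plk3 (-1.98) and the factor gene Klf2 (-1.45). Members of the list were thus called in both directions. In M1 NS against M0 NS, 22 rose, among them Socs3 (6.14), and 7 fell, among them Ier5l (-5.44), where 26.9% of all genes rose and 28.6% fell. In M1 KD against M0 KD, 19 were called higher and 7 lower, against 26.9% and 31.4% of all genes, and in M0 0 were called.

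**Figure D4:**
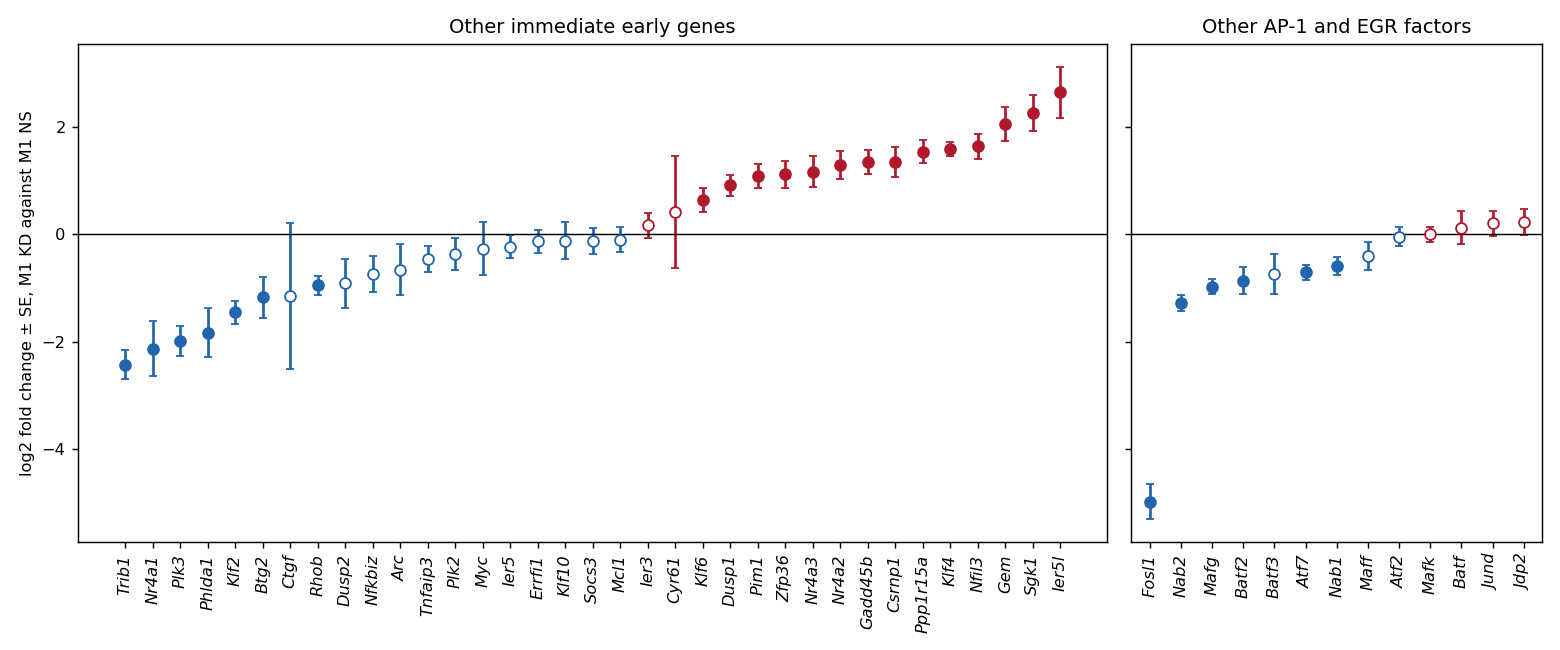
Log2 fold change with its standard error in M1 KD against M1 NS for 35 other immediate early genes (left) and 13 other AP-1 and EGR factors (right), sorted by value, from the edgeR fit of all libraries. Filled points are called at an adjusted p under 0.05. The left list runs in both directions with 14 called higher and 7 lower, and in the right list all 6 called points lie below 0, with Fosl1 lowest at -4.98.

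Among 22 genes of the SRF, CREB and MAP kinase inputs, 2 were called higher in M1 KD than in M1 NS, the SRF coactivator gene Mkl1 (log2 fold change 1.08) and Crem (0.52), and 8 were called lower, such as the ternary complex factor gene Elk3 (-1.46), Mapk14, which encodes p38 alpha (-1.03), and Map3k8, a kinase upstream of ERK (-0.77). Their median was -0.34, and the shares of all genes called were 17.6% higher and 19.2% lower, also for the ERK feedback and heat shock genes in this comparison. Srf itself averaged 45.0 ± 1.4 CPM in M1 KD (SD, n = 2), against 65.2 ± 17.7 CPM in M1 NS (SD, n = 3). In M1 NS against M0 NS, 12 of the 22 rose and 6 fell, against 26.9% and 28.6% of all genes. Of 7 tested genes of ERK feedback, Dusp5 was called higher in M1 KD (0.85), and Dusp6, the cytoplasmic ERK phosphatase (-2.44), Spred2 (-1.71) and Spred1 (-0.86) were called lower. In M1 NS against M0 NS, 4 of these 7 rose and 0 fell, against the same shares. In M0 cells, 0 genes of either list were called.

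Most heat shock genes, which handling or stress can raise, were higher in M1 than in M0 cells, and the cause was not tested. Of 9 genes, 3 were called higher and 0 lower in M1 KD than in M1 NS, Hspa1a (log2 fold change 1.07), Hspa8 (0.65) and Dnajb1 (0.52). In M1 NS against M0 NS 7 rose, against 26.9% of all genes, with Hspa1a at 6.55. The summed level of the 9 genes was 5497 to 7135 CPM in M1 KD, 4443 to 4836 in M1 NS, 1556 to 1838 in M0 KD and 1574 to 1628 in M0 NS. The part of handling stress, of neutrophil and dendritic cell RNA and of the replicate 4 libraries in the members' values was not tested. In a fit without replicate 4 of M1 NS, M0 KD and M0 NS, the members called numbered 9 in M1 KD against M1 NS (41.6% of all 14582 genes tested), 0 in M0 KD against M0 NS (0.837%), 7 in M1 NS against M0 NS (56.3%), 9 in M1 KD against M0 KD (61.3%) and 9 in the difference of effects (25.7%). With these libraries the numbers were 9, 0, 6, 9 and 8.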

How the data were processed

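The members and gene lists were chosen with earlier results of these data known. RNA libraries of 11 samples were compared. The submitters' processing notes name the build GRCm38 and the tools STAR 2.5.2b, Trimmomatic 0.36 and Subread 1.5.2 with its featureCounts program. The deposited table gives raw counts for each gene, as whole numbers. The blank entry (at most 0.000305% of a library) was left out, and the deposited normalized table was not used here. The labels do not say how reads shared between genes were treated.

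The test was that of edgeR 4.0.16 (R 4.3.3) on these counts. The filter was filterByExpr (minimum count 10, minimum total 15). Libraries were scaled by TMM and fitted with 1 coefficient per group over all 11 libraries (glmQLFit with the robust option, glmQLFTest). Calls used a Benjamini-Hochberg adjusted p under 0.05. Each SE is the log2 fold change divided by the root of F. Exon lengths, exon numbers and overlaps came from GENCODE M21, and promoter windows from RefSeq. All members were named. From each other list, up to 3 called genes per direction with the smallest p were named, or all where 5 or fewer were called. Egr4, Srf and Jund were added after their values were seen, as were the means of Lyz2, Lcn2 and Ccr7. Genes like a member needed a mean log2 CPM of at least 3 (prior count 2). Alternatives were DESeq2 1.42.0, limma-voom (limma 3.58.1), other scaling, no filter, the compared groups alone, a replicate block and each library left out. The procedure was tested on simulated data. Arrangement by group followed the titles in the labels.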

Additional observations from a re-analysis of the deposited data

Results flagged for a closer look

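For 8 of the 10 genes the effect of the gapmer differed between M1 and M0 cells by the contrast of both effects in the edgeR fit, which called 27.3% of all genes. The choice of the members used the M1 part of this contrast, so the values are given as a description. M1 KD also shares no replicate number with M1 NS, so gapmer and number cannot be told apart in that part. The log2 difference (effect in M1 minus effect in M0) was -5.47 for Egr1, -1.86 for Egr2, -3.15 for Egr3 and -1.60 for Ier2. The value of Egr3 rests on 2 counts in M1 KD and ran from -6.51 to -2.39 over the alternatives. The call of Egr2 was lost with limma-voom and without M1 KD replicate 6, and that of Ier2 with median-of-ratios scaling and when most single libraries were left out. The log2 difference was 1.28 for Fos, 5.67 for Fosb, 1.22 for Jun and 1.82 for Junb. For Egr1 the M1 KD libraries lay below all M1 NS libraries and the M0 KD libraries above all M0 NS libraries. For Junb the M1 KD libraries lay above all M1 NS libraries and the M0 KD libraries below all M0 NS libraries, an M0 change that was not called and that a correction for gene length, GC content and exon number turned to 0.036.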

How the results depend on the processing

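The values of the members were recomputed under 13 to 18 alternatives per comparison. The number of members called stayed within 7 to 10 for M1 KD against M1 NS, 6 to 8 for M1 NS against M0 NS, 8 to 10 for M1 KD against M0 KD and 7 to 9 for the difference of effects. For M0 KD against M0 NS it was 0 throughout, except 2 with the M0 groups compared alone. That fit called 1103 of 13683 genes, where the fit of all 11 libraries called 0 of 15024. The absence of calls in M0 thus depended on the fit used, and the cause was not tested. Leaving out 1 library at a time gave 7 to 10, 0 to 0, 6 to 8, 9 to 10 and 7 to 9 for M1 KD against M1 NS, M0, M1 NS against M0 NS, M1 KD against M0 KD and the difference. Over the member values, 696 kept direction and side of the threshold, 20 lost a call, 24 gained one and 20 changed sign.

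The sign changes concerned small values that were not called. Library size as the only scaling gave -0.23 for Egr1, -0.34 for Fos and -0.010 for Fosl2 in M1 NS against M0 NS, and 0.041 for Fosb in M0. Leaving out 1 library at a time, Egr1 ran from -0.038 (without M1 NS replicate 1) to 0.37 and Fos from -0.0046 (likewise) to 0.11 in M1 NS against M0 NS. In M0, Egr2 ran from -0.12 (without M0 KD replicate 4) to 0.39, Fosb from -0.14 to 0.093 and Jun from -0.057 to 0.12. Jun in M0 was -0.0014 with DESeq2 and with median-of-ratios scaling, and -0.0063 with no filter. A correction for gene length, GC content and exon number was chosen after seeing the data. It gave -0.031 for Atf3 in the difference, and in M0 0.21 for Fosb, 0.028 for Ier2 and 0.036 for Junb. The causes were not tested. The fit without the replicate 4 libraries, given in the report, was also chosen after seeing the data.

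The label number was used as a replicate block over the 9 libraries of M1 NS, M0 KD and M0 NS. It gave 0 members in M0 and 8 in M1 NS against M0 NS, beside 0 and 7 without the block on the same libraries. Fosl2 in M1 NS against M0 NS was the member whose call the block changed, at 0.37 and called with it, and 0.40 and not called without it. Same-numbered libraries deviated together with correlations of 0.135, 0.0221 and 0.124 between M0 KD and M0 NS, and 0.0899, -0.0752 and -0.0825 between M1 NS and M0 NS, so the numbers were not taken as pairs. No paired analysis was possible for M1 KD because it shares no number with M1 NS or M0 KD. Depth limits Egr3, where 3 counts are 0.110 CPM in M1 KD replicate 6.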
